A study of Mus musculus with 24 samples.

Results

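The genes described here are 10 markers of choroid plexus epithelium, Ttr, Sostdc1, Enpp2, Folr1, Prlr, Kl, Aqp1, Clic6, Otx2 and Calml4, measured in mouse hippocampus after a night of corticosterone intake. They were selected by name, and every array probe other than control spots whose transcript accession maps to one of these symbols was taken, which gave 15 probes of 56605 on the array and 10 genes of 23787 named. The hippocampi came from 48 male Swiss-Webster mice aged 12 weeks and housed singly. In the corticosterone groups the drinking water held 100 µg/ml corticosterone with 0.45% hydroxypropyl-β-cyclodextrin, a sugar ring that keeps the steroid in solution, and the control (vehicle) groups drank cyclodextrin alone. Mice of both treatments were killed during hour 1, 5 or 9 of the resting (light) period, 8 mice in each of the 6 groups. Each whole hippocampus was 1 sample without pooling, and the tissue holds all cell types that the dissection collected. Each of the 24 two-colour arrays, spread over 3 slides, carried 1 control mouse labelled with Cy3 and 1 corticosterone mouse of the same hour labelled with Cy5. Because the dyes were never swapped, a dye effect of a probe adds to every contrast between treatments and cannot be told apart from the treatment, whereas it cancels in contrasts between hours within 1 treatment and in differences of the treatment effect between hours.

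The choroid plexus is a sheet of secretory epithelium that hangs in the brain ventricles, produces cerebrospinal fluid and forms the barrier between blood and that fluid. In the lateral ventricle it attaches along the fimbria, next to the hippocampus, so that strands of it can be taken along or left behind when the hippocampus is removed. Some of its marker genes are also transcribed by cells of the hippocampus itself, among them Enpp2 in oligodendrocytes and Kl in neurons.

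Between 60.8% and 67.2% of Cy3 spots and between 64.0% and 73.5% of Cy5 spots were well above background on the 24 arrays, and no spot was saturated. All intensities below are normalized spot intensities in arbitrary units, which can be compared between mice for the same probe but not between probes. An array of hour 5 on slide 3 (replicate 7) stood apart from the others. On it, 3698 of the 31852 probes with a mean intensity of 50 or more (11.6%) had their lowest value of all 24 arrays in both channels at once, against at most 695 (2.18%) on any other array. Enpp2 and Prlr were among those probes, and results that rest on this array are given with and without it.

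Of the 15 probes, 8 were well above background in all 48 channels, which covers 1 probe each of Ttr, Sostdc1, Enpp2, Kl, Aqp1 and Clic6 and 2 of the 3 probes of Prlr. The brightest probe of Folr1 was well above background in 39 channels, that of Calml4 in 36 and that of Otx2 in 21. A gene is represented by its brightest probe unless another probe is named. Further choroid plexus markers were present unevenly. Of 27 other markers with a probe, 18 were detected (well above background in at least 24 of the 48 channels), but Cldn2, Kcne2, Lmx1a, Slco1a5 and Steap1 did not reach that level in any channel, and Krt8 and Slc4a5 did so in 1. By the same rule 11 of 12 markers of hippocampal neurons were detected, with Iyd well above background in no channel, but so were 8 of 9 markers of thalamus and habenula, 12 of 12 ependymal and 12 of 12 meningeal and stromal genes, so that detection alone does not tell the labelled tissue from its neighbours.

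Ttr encodes transthyretin, the thyroid hormone carrier that choroid plexus epithelium secretes into cerebrospinal fluid. In control mice its intensity had a lowest, median and highest value of 88.6, 377 and 705 at hour 1, of 194, 280 and 1050 at hour 5, and of 81.2, 188 and 876 at hour 9. In corticosterone-treated mice the same values were 137, 264 and 431 at hour 1, 141, 351 and 693 at hour 5, and 169, 244 and 1781 at hour 9. Low and high mice occurred in every group, and all 6 groups overlapped. The highest mouse exceeded the lowest 12.93-fold among the 24 control mice and 12.98-fold among the 24 corticosterone-treated mice. A second, dimmer Ttr probe, well above background in 20 channels, followed the first across mice with Pearson's r of 0.86 in control and 0.80 in corticosterone-treated mice.

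Sostdc1 encodes a secreted antagonist of bone morphogenetic protein and Wnt signals. It ranged from 144 to 287 in control mice (median 208) and from 133 to 283 in corticosterone-treated mice (median 205). Enpp2 encodes autotaxin, a secreted enzyme that produces lysophosphatidic acid. Its intensity lay between 4793 and 7365 in control mice and between 4127 and 6221 in corticosterone-treated mice on 23 arrays, and fell to 2722 and 2212 on the hour 5 array that stood apart.

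Folr1 encodes the folate receptor by which choroid plexus epithelium passes folate into cerebrospinal fluid. It ranged from 25.8 to 66.5 in control mice and from 31.04 to 58.5 in corticosterone-treated mice, close to the limit of detection. Prlr, the prolactin receptor, ranged from 97.7 to 233 in control mice and from 144 to 354 in corticosterone-treated mice on 23 arrays, with 73.3 and 70.1 on the array that stood apart. Kl encodes klotho, a co-receptor of fibroblast growth factor 23, and ranged only from 634 to 1023 and from 655 to 919 in control and corticosterone-treated mice. The water channel Aqp1 ranged from 43.2 to 77.3 and from 34.1 to 80.6 in the same order. Clic6, a member of the chloride intracellular channel family, ranged from 43.4 to 128 (2.94-fold) and from 54.2 to 151 (2.79-fold).

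Otx2 encodes a homeodomain transcription factor needed for the choroid plexus to form, and Calml4 encodes a calmodulin-like protein. The intensity of Otx2 ranged from 19.3 to 54.6 in control mice, 8 of 24 well above background, and from 22.4 to 101 in corticosterone-treated mice, 13 of 24 well above. Calml4 ranged from 13.3 to 65.5, with 13 of 24 control mice well above background, and from 24.7 to 60.6, with 23 of 24 corticosterone-treated mice well above.

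**Figure D1:**
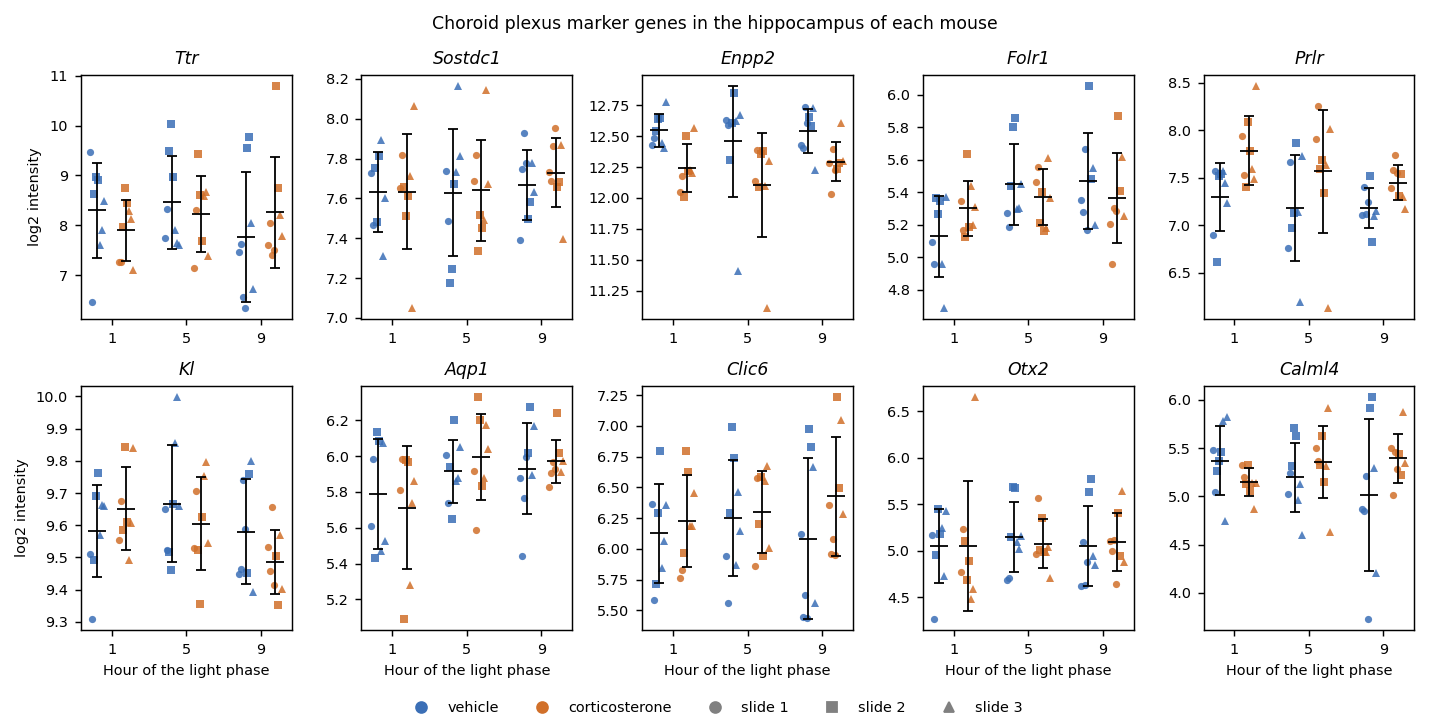
Normalized intensity (log2 scale, vertical axis) of each of the 10 marker genes in every mouse, with hour 1, 5 and 9 of the resting period on the horizontal axis, control mice in blue, corticosterone-treated mice in orange, slide by marker shape and mean ± SD of the 8 mice as black bars. Ttr spreads over more than 3 units of log2 in both treatments, whereas Kl stays within 1 unit.

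The promoters of 5 of the 10 genes (Prlr, Kl, Aqp1, Otx2 and Calml4) were in the RefSeq table of build GRCm38.p6, with 10 start sites in all. Those of Ttr, Folr1, Clic6, Sostdc1 and Enpp2 were not used here. Both strands of the 300 bases from 250 before to 50 after each start were searched for TGTTCT, the glucocorticoid receptor half-site, for the palindromic glucocorticoid response element (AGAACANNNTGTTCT), which contains that half-site on both strands, and for TAATCC, the core bound by OTX-type homeodomains. TGTTCT was found in 19% of all 32851 promoters of this length, the palindrome in 0.00913% and TAATCC in 7.06%. Among the marker promoters TGTTCT was found once each in 1 of 3 Prlr, the Kl and 1 of 4 Otx2 promoters, TAATCC in 1 other Otx2 promoter and the palindrome in none. A match is a description of the letters only. Below are the Prlr promoter with TGTTCT (chr15:10223656-10223955, plus strand), shown because Prlr differed between treatments, and an Otx2 promoter (chr14:48665060-48665359, minus strand) and the Calml4 promoter (chr9:62857854-62858153, plus strand), shown because both genes varied with Ttr in control mice. Capitals mark TGTTCT in Prlr and TAATCC, read as its reverse complement, in Otx2, and Calml4 held none of the 3 motifs.
Prlr: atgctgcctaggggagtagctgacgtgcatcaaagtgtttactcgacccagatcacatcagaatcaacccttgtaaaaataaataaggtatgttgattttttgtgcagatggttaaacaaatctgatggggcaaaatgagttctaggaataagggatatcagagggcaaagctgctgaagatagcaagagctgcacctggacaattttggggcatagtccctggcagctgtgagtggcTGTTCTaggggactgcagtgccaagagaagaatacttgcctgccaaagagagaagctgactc
Otx2: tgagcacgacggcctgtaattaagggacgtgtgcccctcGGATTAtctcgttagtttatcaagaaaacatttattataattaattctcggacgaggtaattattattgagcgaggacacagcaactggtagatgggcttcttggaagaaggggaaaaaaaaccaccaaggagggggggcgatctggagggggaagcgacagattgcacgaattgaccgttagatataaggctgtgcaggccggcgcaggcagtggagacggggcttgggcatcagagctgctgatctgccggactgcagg
Calml4: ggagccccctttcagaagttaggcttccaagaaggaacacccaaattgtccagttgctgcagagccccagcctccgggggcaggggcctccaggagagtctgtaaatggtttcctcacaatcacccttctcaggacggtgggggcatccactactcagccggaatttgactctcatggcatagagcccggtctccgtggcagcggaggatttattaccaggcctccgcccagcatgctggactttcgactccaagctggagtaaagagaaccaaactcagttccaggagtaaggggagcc

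The spread between mice of the same group set several of the markers apart from most of the array. The SD of log2 intensity within groups was 0.97 for Ttr, larger than that of 99.8% of the 31852 probes with a mean intensity of 50 or more, whose median SD was 0.18. Clic6 (SD 0.47, 98.1% of probes smaller), Otx2 (0.43, 97.4%), Calml4 (0.43, 97.2%) and Prlr (0.42, 96.9%) followed, Otx2 and Calml4 being themselves dimmer than those probes. The second Prlr probe, also well above background in all 48 channels, had an SD of only 0.20 (60.6% of probes smaller). The SD was 0.29 for Enpp2, 0.25 for Aqp1, and 0.24 for both Sostdc1 and Folr1, each larger than for 75.3% to 85.7% of probes. Kl, with an SD of 0.15, varied less between mice than the median probe. Without the array that stood apart the SD of Prlr became 0.32 and that of Enpp2 0.16, while that of Ttr was 0.99. In such bulk samples, a larger or smaller number of cells of a type cannot be told apart from more or less RNA per cell.

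Whether the markers varied together from mouse to mouse was tested by correlating each of the other 9 genes with Ttr within each treatment, after centring on the hour, with permutation of mice within hours and adjustment over the 18 correlations. Ttr values formed no separate clusters, since the widest gap between neighbouring mice was 0.75 log2 of a range of 3.69 in control mice, and the 1.36 log2 gap in corticosterone-treated mice set off a single mouse. In control mice, Clic6 (r = 0.78, rho = 0.74, permutation p = 9e-05, adjusted 0.00099), Otx2 (r = 0.78, rho = 0.74, permutation p = 0.00011, adjusted 0.00099), Calml4 (r = 0.74, rho = 0.71, permutation p = 0.00022, adjusted 0.0013) and Folr1 (r = 0.61, rho = 0.61, permutation p = 0.0028, adjusted 0.010) were higher in the mice with more Ttr (n = 24 for each). Without the 2 mice farthest from the Ttr median, these correlations were 0.70, 0.69, 0.61 and 0.58. Of the 24 control mice, Otx2 was well above background in only 8, Calml4 in 13 and Folr1 in 15, so that many of these values lay near the background. The second, dimmer Otx2 probe followed the first at r = 0.19 in control mice. In corticosterone-treated mice only Clic6 passed (r = 0.71, rho = 0.69, permutation p = 0.00037, adjusted 0.0017, n = 24), with r = 0.71 without the 2 farthest mice. Folr1 (r = 0.48, rho = 0.22), Calml4 (r = 0.17) and Otx2 (r = -0.04) did not pass in these mice, and the difference in correlation between treatments was not tested. For comparison, 90% of the probes with a mean intensity of 50 or more had r with Ttr between -0.49 and 0.41 in control and between -0.39 and 0.46 in corticosterone-treated mice.

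Within single hours the correlation of Clic6 with Ttr ranged from 0.62 to 0.89 in control and from 0.63 to 0.78 in corticosterone-treated mice, with 8 mice at each hour. Otx2 ranged from 0.66 to 0.90, Calml4 from 0.32 to 0.87 and Folr1 from 0.56 to 0.69 across hours in control mice. Ttr itself differed between slides. Its median was 188 on slide 1, 601 on slide 2 and 219 on slide 3 in control mice, and 175, 409 and 286 in corticosterone-treated mice. Clic6 in control mice moved with it, with medians of 48.7, 109 and 68.9. Within slides 1, 2 and 3 the correlation with Ttr in control mice was 0.62, 0.69 and 0.76 for Clic6, 0.71, 0.70 and 0.34 for Otx2, 0.49, 0.89 and 0.64 for Calml4, and 0.09, 0.08 and 0.60 for Folr1. Centred on hour and slide together, r was 0.63 for Clic6, 0.61 for Otx2 and 0.61 for Calml4, each with an adjusted permutation p of 0.028, and 0.19 for Folr1, which no longer passed (adjusted permutation p = 0.62). For corticosterone-treated mice the slide-centred r of Clic6 was 0.62 (adjusted permutation p = 0.028). Leaving out the array that stood apart gave the same 5 correlations as passing, with r of 0.81, 0.79, 0.74 and 0.61 in control mice and 0.70 in corticosterone-treated mice.

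**Figure D2:**
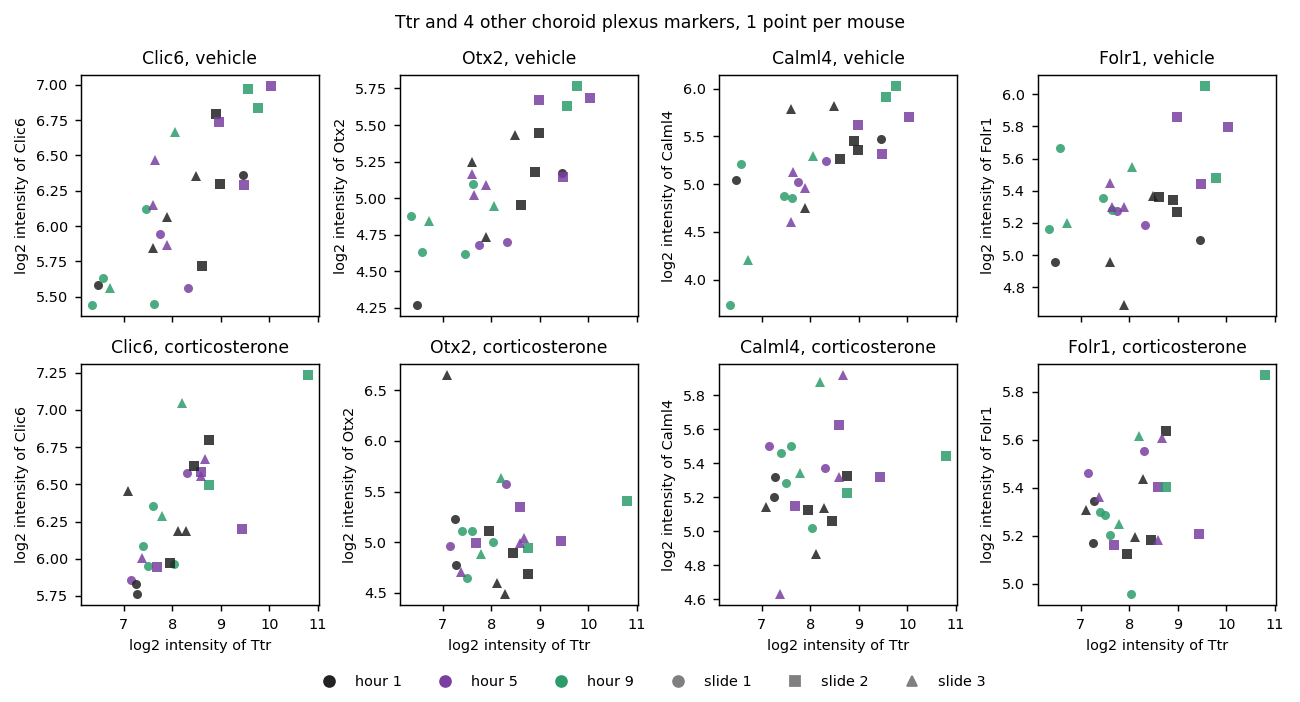
Log2 intensity of Clic6, Otx2, Calml4 and Folr1 (vertical axes) against that of Ttr (horizontal axis), each point a mouse, 24 control mice in the top row and 24 corticosterone-treated mice in the bottom row, coloured by hour with slide as marker shape. All 4 genes rise with Ttr across the control mice (r from 0.61 to 0.78), Folr1 not within slides 1 and 2 (r of 0.09 and 0.08), and in corticosterone-treated mice the relation passed the test for Clic6 (r = 0.71).

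The other 5 markers did not vary with Ttr beyond the test in either treatment. In control mice the correlation with Ttr was -0.40 for Sostdc1, 0.21 for Enpp2, -0.07 for Prlr, 0.00 for Kl and 0.04 for Aqp1. In corticosterone-treated mice Sostdc1 had r = -0.28, and the r of 0.29 for Aqp1 was 0.03 without the 2 farthest mice. Over all 45 pairs of the 10 genes the median correlation was 0.12 in control mice (-0.40 to 0.78) and 0.17 in corticosterone-treated mice (-0.38 to 0.77). Among Ttr, Clic6, Folr1, Calml4 and Otx2, a grouping made after these values were seen, the 10 pairs had a median of 0.68 in control and 0.40 in corticosterone-treated mice. All pairwise values were centred on the hour and not on the slide, so they include shifts shared by a slide. With the slide centred too, r with Ttr in control mice was 0.63 for Clic6, 0.61 for Otx2 and Calml4 and 0.19 for Folr1. Prlr and Enpp2 correlated at 0.58 and 0.77 with all arrays but at 0.23 and 0.39 without the array that stood apart. Sostdc1 and Kl correlated at 0.58 and 0.41 with all arrays and at 0.45 and 0.29 without it, and Enpp2 and Kl went from -0.13 and -0.04 to 0.57 and 0.47. Without that array the median of the 45 pairs was 0.23 in control and 0.26 in corticosterone-treated mice, and that of the 10 pairs 0.70 and 0.38.

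**Figure D3:**
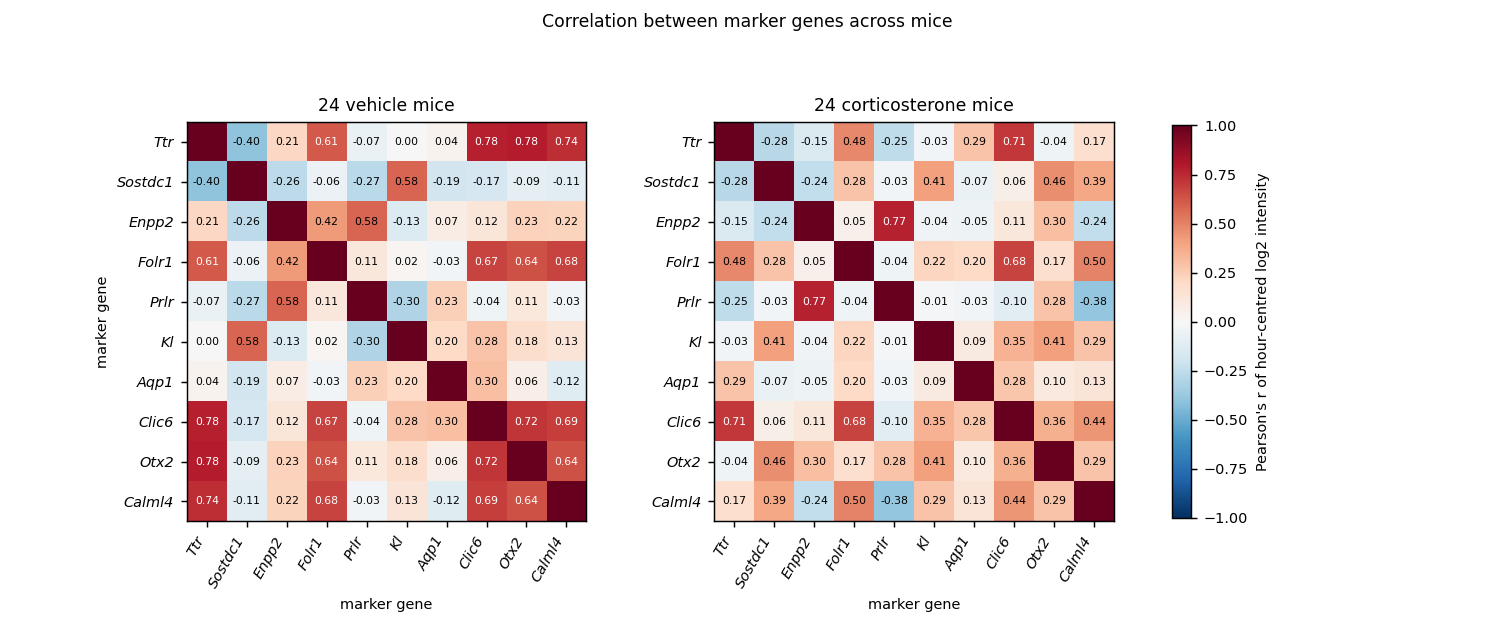
Pearson's r between each pair of the 10 marker genes (rows and columns) as a colour, over 24 control mice at left and 24 corticosterone-treated mice at right, after centring on the hour but not on the slide. Ttr, Clic6, Folr1, Calml4 and Otx2 form a block of positive values in control mice (median 0.68), and with all arrays Prlr and Enpp2 pair in both treatments (0.58 and 0.77).

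Some mice at either end of the Ttr range were also at the end of the range of other markers, and some were not. How much choroid plexus tissue each sample held was not measured, and its part in these values was not tested. The mouse with the highest Ttr of all, a corticosterone-treated mouse of hour 9 on slide 2, had 1781 for Ttr and also the highest Clic6 (151) and Folr1 (58.5) of the 24 corticosterone-treated mice, the 2nd highest Aqp1 (75.5) and the 4th highest Otx2 (42.5). The control mouse with the highest Ttr (1050, hour 5, slide 2) had the highest Clic6 (128), the 2nd highest Otx2 (51.4) and the 3rd highest Folr1 (55.7). At the other end, the control mouse with the lowest Ttr (81.2, hour 9, slide 1) also had the lowest Clic6 (43.4). The corticosterone-treated mouse with the highest Otx2 (101) and the highest Prlr (354), from hour 1, had the lowest Ttr of its treatment (137) and ranked 10th for Clic6. The corticosterone-treated mouse with the 2nd highest Ttr (693, hour 5, slide 2) ranked only 13th of 24 for Clic6, 16th for Folr1, 11th for Otx2 and 12th for Calml4.

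**Figure D4:**
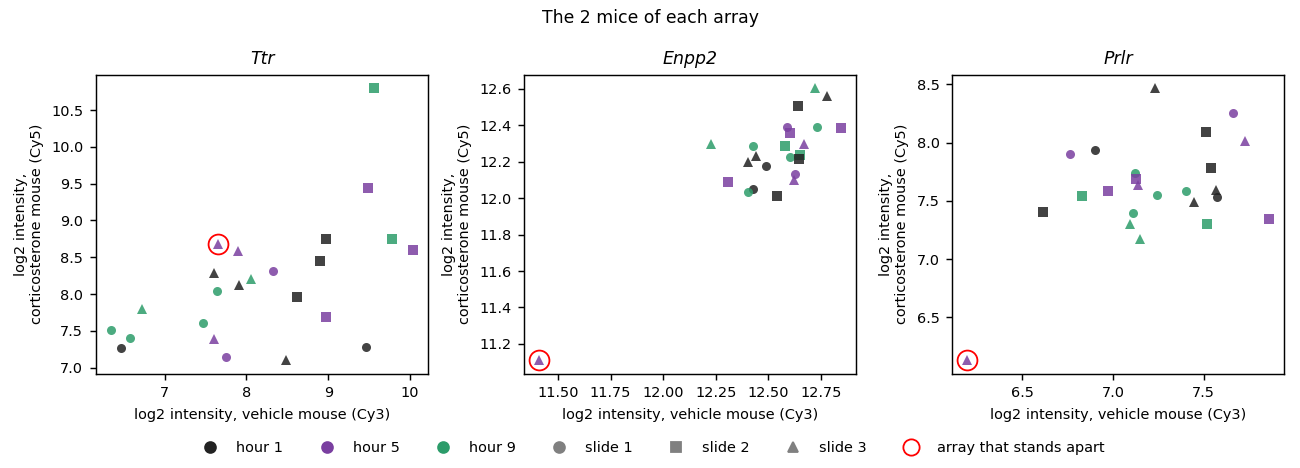
Log2 intensity of the control mouse (Cy3, horizontal axis) against that of the corticosterone-treated mouse (Cy5, vertical axis) of the same array for Ttr, Enpp2 and Prlr, with 24 arrays coloured by hour, slide as marker shape and the array that stood apart circled in red. That array holds the lowest Enpp2 and Prlr of both channels.

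The 2 mice of an array are different animals, yet they share the slide and the hybridization. The groups were made up of brothers from several litters, but the labels do not name the litter of a mouse, so that litters could enter neither these correlations nor the permutations, which treat mice as independent. Over the 24 arrays, after centring on the hour, the 2 channels correlated at r = 0.87 for Enpp2 (rho = 0.72, permutation p = 0.00029, adjusted over 10 genes 0.0029), which was higher than for 96.4% of the brighter probes. Without the array that stood apart this was 0.59, against a median of 0.39 over the brighter probes with all arrays. The correlation was 0.60 for Ttr, 0.59 for Clic6 and 0.57 for Sostdc1, each with an adjusted permutation p of 0.015 against an r of 0, which was higher than for 78%, 77% and 74.4% of the brighter probes. With the slide removed as well, r was 0.26 for Ttr and 0.41 for Clic6 but 0.89 for Enpp2 and 0.56 for Sostdc1. Sostdc1 was at 0.43 without the array that stood apart. Prlr was at 0.46 with all arrays and at 0.04 without that array.

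Between treatments, 4 of the 15 marker probes passed at hour 1 (limma, Benjamini-Hochberg adjusted p under 0.05 over all 56605 probes), where 17.5% of all probes did. Of these 4 probes, from 3 genes, 3 were higher and 1 was lower in corticosterone-treated mice, against 8.79% of all probes higher and 8.74% lower. At hour 5, 1 of 15 passed, lower in corticosterone-treated mice, where 18.1% of all probes passed, 8.64% higher and 9.5% lower. At hour 9, 1 of 15 passed, higher in these mice, where 13.9% of all probes passed, 6.97% higher and 6.93% lower. The share of marker probes called lay above the background at hour 1 and below it at hours 5 and 9, by 1 to 2 probes. The median log2 difference of the 15 probes was 0.07 at hour 1, 0.01 at hour 5 and 0.10 at hour 9, against 0.00 over all probes at each hour. Enpp2 and Prlr passed with probes well above background in every mouse, and the other calls came from dim probes of Otx2 and Folr1.

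Enpp2 was lower in corticosterone-treated mice on all 8 arrays at hour 1 and at hour 5 and on 7 of 8 arrays at hour 9. At hour 1 its lowest, median and highest intensities were 5413, 5845 and 7025 in control mice and 4127, 4729 and 6049 in corticosterone-treated mice, and the groups overlapped. The log2 difference was -0.30 (SE 0.11, adjusted p = 0.037), with means of 5999 ± 564 and 4890 ± 688 (SD, n = 8). At hour 5 the corresponding values were 2722, 6259 and 7365 against 2212, 4764 and 5360, where the lowest mouse of either treatment lay on the array that stood apart. The log2 difference there was -0.35 (SE 0.11, adjusted p = 0.014). At hour 9 Enpp2 had 4793, 6173 and 6799 against 4190, 4985 and 6221, with a log2 difference of -0.25 that did not pass (adjusted p = 0.10). Without the array that stood apart the differences were -0.30, -0.36 and -0.25 at hours 1, 5 and 9. The adjusted p (limma) were 0.00052, 0.00018 and 0.0049, so that hour 9 passed as well. The differences at hours 1 and 9 did not move. Their SE fell from 0.11 to 0.067, since all groups share an estimate of the spread. The array held the lowest Enpp2 of both treatments and was left out after its values were seen, so these p-values are no independent support. Within slides 1, 2 and 3 the mean log2 ratio was -0.34, -0.37 and -0.21 at hour 1, -0.35, -0.31 and -0.40 at hour 5, and -0.31, -0.36 and -0.03 at hour 9, from 2 to 4 arrays each. The call at hour 1 was lost when any of replicates 1, 2, 3, 5, 6 or 7 of hour 1 was left out (log2 difference -0.32 to -0.27, adjusted p up to 0.099), both calls were lost without slide 1 or slide 2, and that at hour 5 was lost in a separate fit of each hour (adjusted p = 0.11). Whether the difference came from the dye or the treatment cannot be told apart.

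Prlr was higher in corticosterone-treated mice at hour 1 by 2 of its 3 probes. The brightest probe had 97.7, 179 and 190 as lowest, median and highest in control mice and 169, 207 and 354 in corticosterone-treated mice, higher on 7 of 8 arrays, and the groups overlapped between 169 and 190. Its log2 difference was 0.49 (SE 0.17, adjusted p = 0.029), with means of 161 ± 35.5 and 227 ± 62.2 (SD, n = 8). The second probe gave 68.1 ± 11.9 and 80.8 ± 6.56, also higher on 7 of 8 arrays, with a log2 difference of 0.26 (SE 0.084, adjusted p = 0.024). The third probe was well above background in 2 of 48 channels and did not pass. At hours 5 and 9 the brightest probe had log2 differences of 0.39 and 0.27 that did not pass (adjusted p = 0.089 and 0.30), and the second probe had 0.11 and 0.16. The difference between hours was itself tested and did not pass for either probe. Without the array that stood apart the adjusted p at hour 1 was 0.0065 for the brightest and 0.019 for the second probe, and the brightest also passed at hour 5 (0.45, SE 0.15, adjusted p = 0.023). The differences at hour 1 did not move. That array held the lowest value of the brightest probe in both treatments, so these p-values are no independent support. Within slides 1, 2 and 3 the mean log2 ratio of the brightest probe at hour 1 was 0.50, 0.53 and 0.43. Its call was lost without replicate 1, 3, 4 or 8 of hour 1 (log2 difference 0.38 to 0.56, adjusted p up to 0.11) and without slide 1 or 2, and that of the second probe without replicate 3, 7 or 8 of hour 1 and without any of the slides.

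The remaining calls came from probes near the background. A second Otx2 probe was called at hour 1 (adjusted p = 0.016), although it was well above background in none of the 24 control and 1 of the 24 corticosterone channels, so no size of the difference is given, while the brighter Otx2 probe, which rose clear of the background in 3 control and 4 corticosterone-treated mice of that hour, was not called (adjusted p = 0.92). A second Folr1 probe was called at hour 9 (adjusted p = 0.027) but was not well above background in any of the 48 channels, whereas the brighter Folr1 probe differed by -0.11 (SE 0.10). The Otx2 call was lost without replicate 4 or 6 of hour 1 (adjusted p up to 0.070), without slide 2 or 3, and in a separate fit of hour 1 (adjusted p = 0.063). The Folr1 call was lost without replicate 3, 4, 6, 7 or 8 of hour 9 (adjusted p up to 0.097) without any of the slides, and with the authors' log2 ratios (limma adjusted p = 0.067). These second probes correlated with the brighter probe of their gene at 0.19 and -0.22 for Otx2 and at 0.46 and 0.01 for Folr1 in control and corticosterone-treated mice.

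Ttr, the gene with the widest spread, did not pass between treatments at any hour. Its log2 difference was -0.40 at hour 1 (95% interval -1.18 to 0.37), -0.24 at hour 5 (-1.01 to 0.54) and 0.50 at hour 9 (-0.27 to 1.27), and the ratio on single arrays ran from -2.18 to 0.79 at hour 1 alone. For Clic6 the log2 differences were 0.10, 0.05 and 0.34 (SE 0.18) and for Calml4 -0.22, 0.16 and 0.38 (SE 0.18). Calml4 was well above background in only 6, 3 and 4 of 8 control mice at hours 1, 5 and 9, so that the size of its differences is uncertain. Kl had 0.07, -0.06 and -0.09 with an SE of 0.062, the tightest of the 10 genes. Aqp1 (SE 0.10) and Sostdc1 (SE 0.098) stayed within 0.08 of 0 at each hour, and none of these 5 genes passed.

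**Figure D5:**
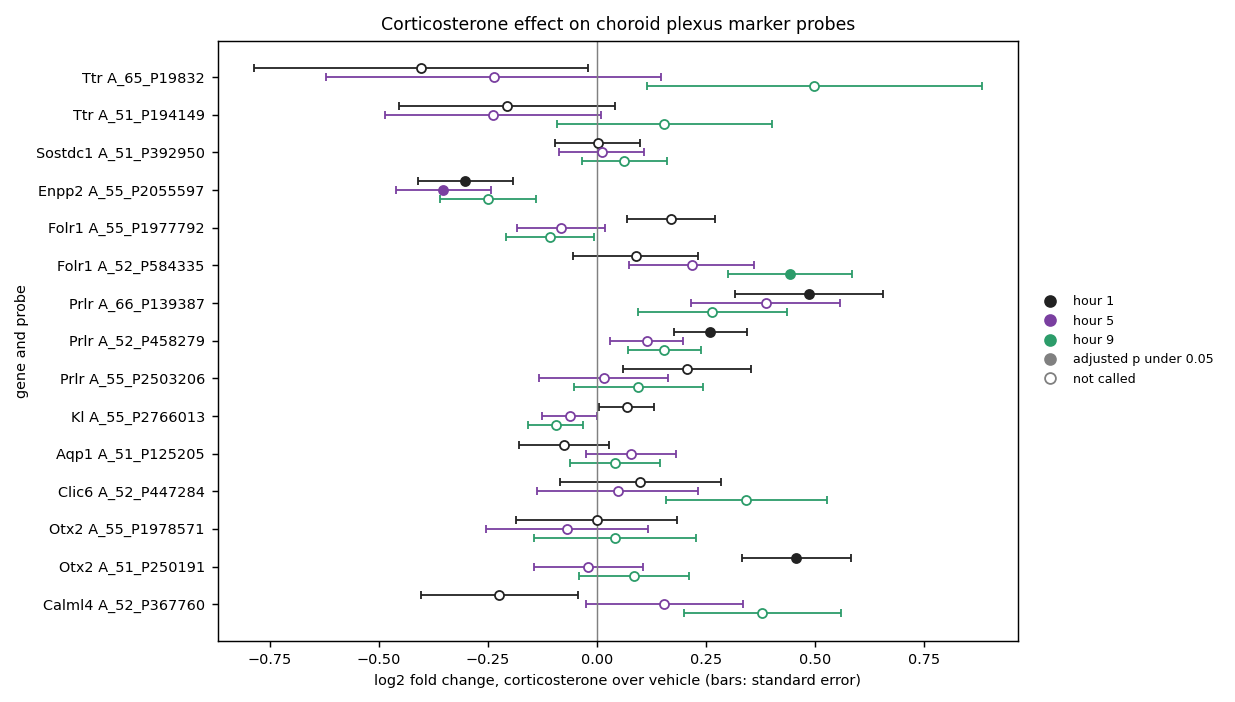
Log2 difference (corticosterone minus control, horizontal axis) with its SE for each of the 15 marker probes at hours 1, 5 and 9, filled where the adjusted p was under 0.05, the second probes of Otx2 and Folr1 being near the background, where the plotted size has no meaning as a fold. Enpp2 lies below 0 and the brightest Prlr probe above 0 at all 3 hours, and the error of Ttr (SE 0.38) is the widest.

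Between hours within 1 treatment, none of the 15 probes passed in any of the 6 comparisons (limma), where 0.0053%, 0.516% and 0.0318% of all probes passed in control mice (hours 5 against 1, 9 against 1 and 9 against 5) and 0.537%, 3.93% and 0.668% in corticosterone-treated mice. At an unadjusted p under 0.05 these comparisons held 1, 1, 0, 2, 2 and 0 probes. Of all probes, between 6.37% and 14.5% had such a p in these comparisons, so that the marker counts were near the background. The smallest adjusted p was 0.22. The treatment effect did not differ between hours for any probe either (limma, smallest adjusted p = 0.59), where 0.0389%, 0.829% and 0.0813% of all probes passed for hour 5 against 1, 9 against 1 and 9 against 5. At an unadjusted p under 0.05 these held 1, 2 and 0 probes, where 4.49%, 7.17% and 5.2% of all probes did.

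Markers of other cells that could be collected with the hippocampus were read beside these results, each list by its detected genes. Among 18 detected choroid plexus markers outside the 10 genes, 3 were higher and 2 lower in corticosterone-treated mice at hour 1, 1 and 4 at hour 5, and 1 and 0 at hour 9, where 17.5%, 18.1% and 13.9% of all probes were called in either direction, with median log2 differences of -0.01, -0.08 and -0.09 against 0.00 over all probes. Their median correlation with Ttr was -0.01 in control and 0.16 in corticosterone-treated mice. Of the 18, 9 correlated positively with Ttr in control and 14 in corticosterone-treated mice. In control mice they ran from -0.56 for Slc16a8, a monocarboxylate transporter, to 0.77 for the keratin Krt18, and in corticosterone-treated mice these 2 genes had r of 0.51 and 0.13. For 12 ependymal genes the median r with Ttr was 0.32 and -0.05, and for 12 genes of meninges and stroma 0.00 and 0.10. For 12 oligodendrocyte genes it was 0.24 and 0.01, 11 of them positive in control and 6 in corticosterone-treated mice, and Ermn, a myelin-associated gene of oligodendrocytes, had r of 0.74 and 0.65. The part of oligodendrocyte RNA in the Ttr values was not tested.

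The 12 oligodendrocyte genes bear on Enpp2. Of these, 2 were higher and 6 lower in corticosterone-treated mice at hour 1, 2 and 6 at hour 5, and 2 and 4 at hour 9, with median log2 differences of -0.26, -0.30 and -0.20. Over all probes 8.79% were higher and 8.74% lower at hour 1, 8.64% and 9.5% at hour 5, and 6.97% and 6.93% at hour 9. The summed intensity of the list at hour 1 ran from 101400 to 117500 in control mice and from 87520 to 105400 in corticosterone-treated mice. Opalin, a myelin membrane protein, differed by -1.17, -1.38 and -0.69 on the probe read here and Mobp, a protein of myelin, by 0.59, 0.50 and 0.34. The study found a lasting change of Opalin only with a probe for a transcript that keeps an intron. The probe expected to bind the main Opalin transcript did not show it. Which of these probes was read here was not checked. Across mice the median correlation of Enpp2 with the 12 genes was 0.12 in control and -0.12 in corticosterone-treated mice with all arrays and 0.62 and 0.46 without the array that stood apart. In control mice without that array the 12 genes ran from 0.02 for Ermn and 0.06 for Mbp, both genes of myelin-forming cells, to 0.81 for Mog, a myelin glycoprotein. Without that array the median correlation with Enpp2 was 0.36 and 0.39 for the other 9 marker genes, with 9 and 8 of 9 positive, 0.54 and 0.32 for the ependymal genes, and 0.16 and 0.15 for the 18 further choroid plexus genes. It was 0.14 and 0.27 for thalamus and habenula and 0.04 and 0.00 for meninges and stroma. For blood and endothelium it was -0.02 and -0.11, and for hippocampal neurons -0.19 and -0.18. On the array itself the oligodendrocyte genes averaged 0.03 and 0.34 log2 above their group means in the control and the corticosterone-treated mouse, while Enpp2 was at -1.05 and -1.0. Of the 12 genes, 1 (Cnp) had its lowest value of all arrays there in both channels, as did 3 of 11 genes of hippocampal neurons. The part of oligodendrocyte or choroid plexus RNA in the lower Enpp2 was not tested.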

How the data were processed

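Hippocampal RNA of 48 single mice was hybridized by the authors to 24 two-colour Agilent mouse arrays (control Cy3, corticosterone Cy5). The deposited scanner files give intensity and background per spot, and the deposited value table holds the authors' log2 ratios, which lay closest (median absolute difference 0.010) to ratios made with normexp offset 50 and were used only as an alternative. No value column of another sample was used (0 columns). Of 62976 spots, 3671 were controls and were left out after background correction. Median spot intensities and median background intensities were corrected by normexp, normalized by loess within and quantile between arrays, and copies of a probe were averaged. Spots marked as outliers (80 to 276 per array) were set missing, so 77 probes lacked an array. limma 3.58.1 in R 4.3.3 fitted both channels separately (intraspot correlation 0.286) over 6 groups, with p-values from offset 50, log2 differences and SE from offset 0, and Benjamini-Hochberg adjustment over 56605 probes. On simulated data (hour 1 treatment contrast, 56528 probes) it recovered 100% of 200 probes changed by 1 log2 unit, with 5.66% false among calls. The simulation held no smaller change and no array that stood apart. It therefore does not give the recovery for differences of the size called for Enpp2 and Prlr (0.26 to 0.49 in either direction). Correlations used 100000 permutations of mice within hours. Probes were named through their accession with RefSeq tables, which gave 1 gene for 34566 probes, several for 0 and none for 22039. The text names all 10 marker genes with every probe, the brightest standing for the gene, members of the fixed cell type lists, and the 10 other genes whose values were most like those of the markers. The marker genes and lists were chosen with earlier results of these data known. The number of arrays limits the precision. No 2 channels held near-identical values (highest r of centred values 0.884). Where the labels do not say that samples differ in more than the animal, p-values measure the spread between these mice. Alternatives covered the background offset and correction, normalization, filters on dim probes, a test on log ratios, slide as a block, variance trend, separate fits, the authors' ratios, and leaving out slides or arrays.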

Additional observations from a re-analysis of the deposited data

Results flagged for a closer look

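Within the 60 groups of 8 mice (10 genes, 6 groups), 6 held a mouse whose distance to its nearest neighbour was unusually large for the range of its group, where chance gives about 1 in 20. Ttr was highest at 1781 in a corticosterone-treated mouse of hour 9, where the next mouse had 431, and Aqp1 was highest in the same mouse at 75.5 (next 64.7). Enpp2 was lowest at 2722 in control mice of hour 5 (next 5070) and at 2212 in corticosterone-treated mice of hour 5 (next 4356), and Prlr was lowest at 70.1 in corticosterone-treated mice of hour 5 (next 163). These 3 lowest values lay on the 1 array that stood apart. Otx2 was highest at 101 in a corticosterone-treated mouse of hour 1 (next 37.6).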

How the results depend on the processing

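None of the called differences or correlations changed sign under any alternative run. The count of marker probes called between treatments at hour 1 (4) was 1 without slide 1, 0 without slide 2, 2 without slide 3, and 1 to 4 when single arrays were left out. It was also lower among probes with a mean intensity of 50 or more and among those well above background in 8 channels of a dye. Both filters leave out the second Otx2 probe (mean intensity 20.7), which is among the 4. At hour 5 the count of 1 was 2 with no background correction, 2 with the authors' log2 ratios, 0 without slide 1, 0 without slide 2, 0 with a separate fit for each hour, and 1 to 2 without single arrays. At hour 9 the count of 1 was 0 among probes with a mean intensity of 50 or more, 0 among probes well above background in 8 channels of a dye, 2 with a test on log ratios, 0 without slide 1, 3 with a separate fit for each hour, and 0 to 2 without single arrays. The 9 comparisons between hours and of effects between hours held 0 calls under every alternative run. The 5 correlations with Ttr that passed were 4 to 5 across alternatives. Leaving out the array that stood apart, in the tests between treatments and in the correlations, was chosen after seeing the data. Slide as a block kept the calls of Enpp2 (adjusted p = 0.044 and 0.018 at hours 1 and 5) and Prlr (0.034 and 0.024 at hour 1). For the contrasts between hours, no paired analysis was possible because the labels give no replicate number or litter shared between groups. Between treatments, the array pairs a control with a corticosterone-treated mouse, both in the fit used and in the test on log ratios, which gave 4, 1 and 2 calls at hours 1, 5 and 9. Dim signal limits Folr1, Otx2 and Calml4, whose probes were not well above background in 9 to 27 of 48 channels.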

Other observations

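The 10 named genes whose values over the 48 channels were most like the mean of the markers, Otx2 left out for its dim signal, had r between 0.58 and 0.66, among 22368 candidate probes with a median of -0.02. They were Ecrg4 (0.66), which choroid plexus epithelium also expresses, Hspb3 (0.64), Hcrt (0.63), Plin3 (0.62), Ccdc172 (0.60), Dynlrb2 (0.59), Fa2h (0.59), Mcee (0.59), Oxt (0.58) and Tma7 (0.58). The 48 channels are 24 pairs of mice that share an array, and the list was picked for its likeness, so no test is given. Ecrg4 ranged from 49.3 to 184 over the 48 channels. Hcrt, the precursor of the hypothalamic peptides orexin, ranged from 32.2 to 106.8 and was well above background in 41 channels. Ccdc172 correlated with Ttr alone at 0.80 in control and 0.52 in corticosterone-treated mice. The glucocorticoid-responsive genes of a fixed list of 8 were higher in corticosterone-treated mice for 8 of 8 at hour 1 and 5 of 8 at hour 5, while at hour 9 there were 1 higher and 3 lower, with median log2 differences of 0.78, 0.23 and -0.08. That list was chosen with earlier results of these data known, so its counts describe the list and are no independent check. Over all probes 8.79% were higher at hour 1 and 8.64% at hour 5, and at hour 9 6.97% were higher and 6.93% lower.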
